A study of Rattus norvegicus with 19 samples.

Results

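The genes described here serve the uptake of glucose into the heart, its breakdown to pyruvate and lactate, and its storage as glycogen. They are a list of 38 gene symbols grouped by function: 2 glucose transporters, 20 enzymes and regulators of glycolysis, 3 lactate genes, 10 glycogen genes and 3 genes of side pathways. All 38 were found among the 17455 symbols of the count files. All 38 also passed edgeR's expression filter, which kept 12388 genes for testing.

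Glucose enters a cardiomyocyte through facilitative transporters of the GLUT family, of which GLUT4 moves to the cell surface in response to insulin and contraction. Hexokinase traps it as glucose 6-phosphate, which is either broken down by glycolysis, with phosphofructokinase as the main control point, or stored as glycogen, a reserve the heart draws on when its workload rises or its oxygen falls. The adult heart takes most of its energy from fatty acids and lactate, and glucose metabolism in heart failure is studied because substrate use shifts in that state.

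The samples came from Sprague-Dawley rats, labelled as wildtype, 24 weeks old at the start, 1 library per heart. The labels give the tissue as heart, and the study's methods give it as the left ventricle. HFpEF (heart failure with preserved ejection fraction) was induced with a high-fat diet, 60% of whose energy came from fat, and with L-NAME, which blocks the making of nitric oxide and was dosed at 0.5 g/L. Hearts were taken at week 5 from control 5w (no L-NAME or high-fat diet; 3 libraries) and HFpEF (3), and at week 9 from control 9w (3) and from HFpEF rats given 4 weeks of PBS (untreated; 3), EMPA (empagliflozin, which blocks glucose reabsorption in the kidney; 0.35 g/kg/day; 2), PFD (pirfenidone, a drug against fibrosis; 0.3 g/kg/day; 2) or the 2 drugs together (EMPA + PFD; 3). The labels give 5 weeks of induction and do not say whether L-NAME and the diet went on to week 9. The study's discussion speaks of an induction that lasted until the end, and what a comparison at week 9 measures depends on this. The combination of an enzyme inhibitor with a diet models hypertensive and metabolic stress together, so neither can be read apart. Total counts ran from 7430539 to 13017754 per library, with a median of 9951011, and levels are given as CPM, the usual per-library scaled counts, after TMM normalization.

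Several libraries stood apart from their group. The atrial markers (7 of 7 found, Nppa the most abundant, none at 0) summed to 3324, 6163 and 4689 CPM in control 5w, 2134, 318 and 2010 CPM in HFpEF, 5247, 229 and 23415 CPM in control 9w and 82.5, 14940 and 510 CPM in untreated. EMPA had 731 and 5220 CPM, PFD 3017 and 90.7 CPM and EMPA + PFD 118, 428 and 194 CPM. Of these markers Sln, Bmp10 and Myl7 are named after their values were seen. Sarcolipin (Sln), a gene of atrial muscle, had 518 CPM in untreated replicate 2, 695 in control 9w replicate 3 and 156 in control 9w replicate 1, against at most 5.95 CPM in each of the other 16 libraries. The atrial gene Bmp10 separated the same 3 libraries, with 33.9, 127 and 31.2 CPM against at most 0.984 CPM elsewhere. Myl7 had 3052, 4260 and 1083 CPM in these 3 and also 694, 293 and 307 CPM in control 5w, against at most 44.4 CPM in the other 13 libraries. The 13 ventricular cardiomyocyte markers (13 of 13 found, Myh6 the most abundant, none at 0) were expressed in every library, but most of them are also expressed in atrial muscle. The ventricular light chain genes Myl2 and Myl3, named after their values were seen, had 222 and 494 CPM in untreated replicate 2, against 2194 and 1880 CPM and 5592 and 5293 CPM in the other untreated hearts. In control 9w, Myl2 had 882, 1415 and 623 CPM and Myl3 had 2858, 3882 and 2392 CPM.

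The summed cardiomyocyte markers differed between hearts of the same group. They came to 108548, 53699 and 59200 CPM in control 5w and to 17230, 26698 and 46107 CPM in HFpEF. At week 9 they came to 46524, 53297 and 49517 CPM in control 9w, to 83498, 23711 and 74440 CPM in untreated and to 100582, 125145 and 98311 CPM in EMPA + PFD. EMPA had 62836 and 52327 CPM, and PFD had 86275 and 89054 CPM. HFpEF thus lay below control 5w in every library, EMPA + PFD lay above untreated in every library, and untreated replicate 2 lay far below the other untreated hearts. In bulk tissue, fewer cardiomyocytes and less RNA per cardiomyocyte cannot be told apart, and the part of these differences in the results below was not tested.

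The fibroblast markers (8 of 8 found, Col3a1 the most abundant, none at 0) summed to 44963 and 36468 CPM in control 5w replicates 2 and 3, against 4505 CPM in replicate 1 and 9629 to 17219 CPM in HFpEF. Week 9 libraries had 2095 to 8458 CPM. The labels and the study's methods call the sequenced hearts male, while the design text speaks of equal numbers of both sexes in each cohort of rats. The Y-linked markers (4 of 6 found, Ddx3 the most abundant, Usp9y at 0 in every library) summed to 0.431 and 0.893 CPM in HFpEF replicates 1 and 3, 1.16 to 1.38 CPM in untreated and 0.720 and 0.767 CPM in PFD, and to 178 to 254 CPM in the other 12 libraries. LOC100911498, named after its values were seen, ran the other way. It had 13032 to 27077 counts in these HFpEF, untreated and PFD hearts and 1 to 12 counts in the other 12 libraries. Y-linked status and group therefore cannot be told apart, for any member, in untreated against control 9w, EMPA or EMPA + PFD. Pfkfb1, Pgk1, Phka1 and Ogt are genes of the X chromosome. RT1-CE16, a class I histocompatibility gene named after its values were seen, had 0 to 3 counts in each library of control 5w, HFpEF and EMPA and 308 to 922 counts in each library of the other groups. That split cannot be told apart from time in control 9w against control 5w and in untreated against HFpEF, nor from the drug in EMPA against untreated, and its part in the results was not tested.

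**Figure D1:**
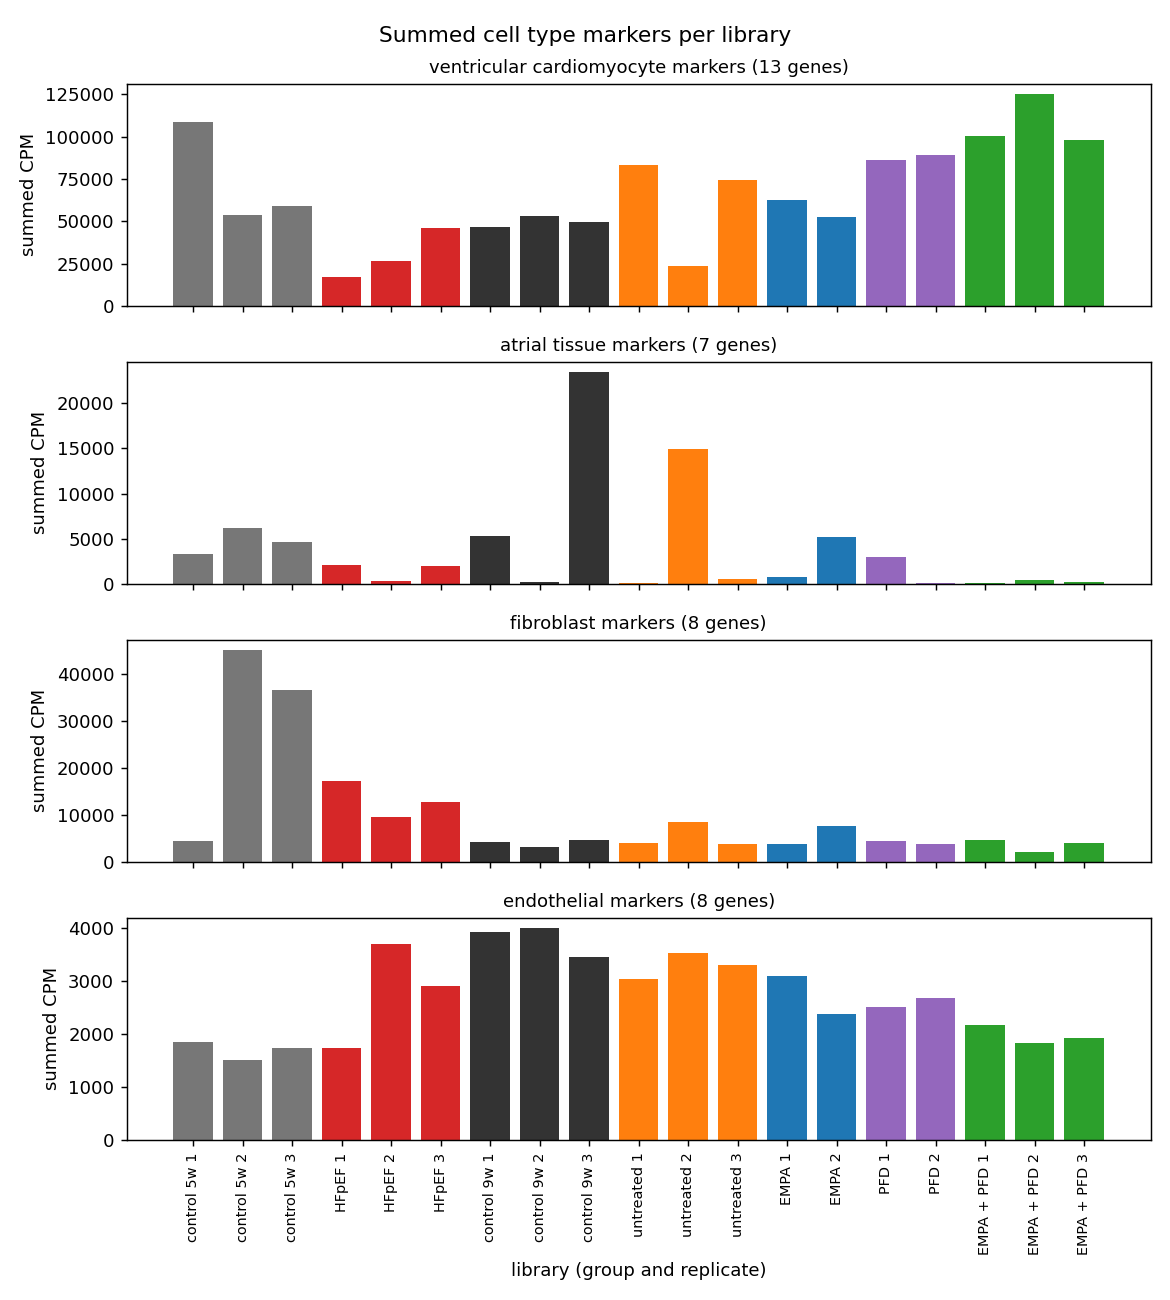
Summed CPM of the markers of ventricular cardiomyocytes, atrial tissue, fibroblasts and endothelium (vertical axes) in each of the 19 libraries (horizontal axis), colored by group. Atrial markers peak in control 9w replicate 3 and untreated replicate 2, and untreated replicate 2 has 23711 CPM of cardiomyocyte markers against 83498 and 74440 CPM in the other untreated hearts.

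In HFpEF against control 5w, which asks what the disease model changed before treatment, 1 of the 38 genes rose and 18 fell at an adjusted p under 0.05. Of all 12388 genes tested, 9.83% rose and 10.2% fell. The median log2 fold change of the 38 was -0.83, against 0.02 over all genes tested. In control 9w against control 5w, which sets control hearts of the 2 weeks side by side, 4 rose and 21 fell, against 17.3% and 17.2% of all genes, with a median of -0.99 against -0.04. In untreated against control 9w, the comparison of model and control at week 9, 1 rose and 1 fell, against 0.589% and 1.19% of all genes. The median there was 0.46, against 0.01 over all genes.

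In EMPA + PFD against untreated, where treatment and Y-linked status changed together, 6 genes rose and none fell at that threshold. Of all genes, 6.60% rose and 5.52% fell. The median of the 38 was 0.53, against -0.03 over all genes. At an unadjusted p under 0.05 the 38 genes held 15 differences, when 32.7% of all genes passed, and DESeq2 called 10, all higher, and 21.4% of all genes in either direction. No member passed the threshold of edgeR's test in EMPA against untreated, in PFD against untreated or in untreated against HFpEF, where 0.0404%, 0.00807% and 0.226% of all genes did. At an unadjusted p under 0.05, 2, 3 and 9 members differed in these comparisons, and so did 8.63%, 5.21% and 22.7% of all genes. DESeq2 called 1, 0 and 4 members, and 0.799%, 0.0404% and 7.76% of all genes. In EMPA + PFD against control 9w, 22 members rose and 1 fell, against 17.1% and 16.6% of all genes, with a median of 0.97 against -0.08. These comparisons share libraries: control 5w serves 2 of them, control 9w 3, and untreated 5, so their values are set side by side and are not independent of each other.

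The counts rest on single libraries to different degrees. For HFpEF against control 5w, leaving out control 5w replicate 1 left 7 called members, leaving out HFpEF replicate 1 left 9, and leaving out HFpEF replicate 2 left 6, when 12.1%, 14.0% and 12.0% of all genes were called. For untreated against control 9w, 12 were called without untreated replicate 2 (11 higher and 1 lower), when 8.22% of all genes were called. There 1 was called without control 9w replicate 1, control 9w replicate 2, untreated replicate 1 or untreated replicate 3, beside 0.202%, 0.0647%, 0.129% and 0.274% of all genes. For EMPA + PFD against untreated, only Phkb was called without untreated replicate 2, untreated replicate 3, EMPA + PFD replicate 2 or EMPA + PFD replicate 3, beside 1.13%, 3.37%, 0.888% and 2.53% of all genes. Without untreated replicate 1 or EMPA + PFD replicate 1, 10 members were called, beside 18.3% and 15.4% of all genes. Untreated against HFpEF held 17 called members (16 higher and 1 lower) without untreated replicate 2, when 14.5% of all genes were called. The count for EMPA + PFD against control 9w ranged from 20 to 23 over these omissions, when 20% to 30.4% of all genes were called. That for control 9w against control 5w ranged from 17 to 23, when 20.9% to 34.4% of all genes were called. In fits to the 2 groups compared alone, 4 members were called in HFpEF against control 5w, 2 in untreated against control 9w, both lower, and 1, Eno3, in EMPA + PFD against untreated, when 6.01%, 1.20% and 0.0435% of all genes were called.

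**Figure D2:**
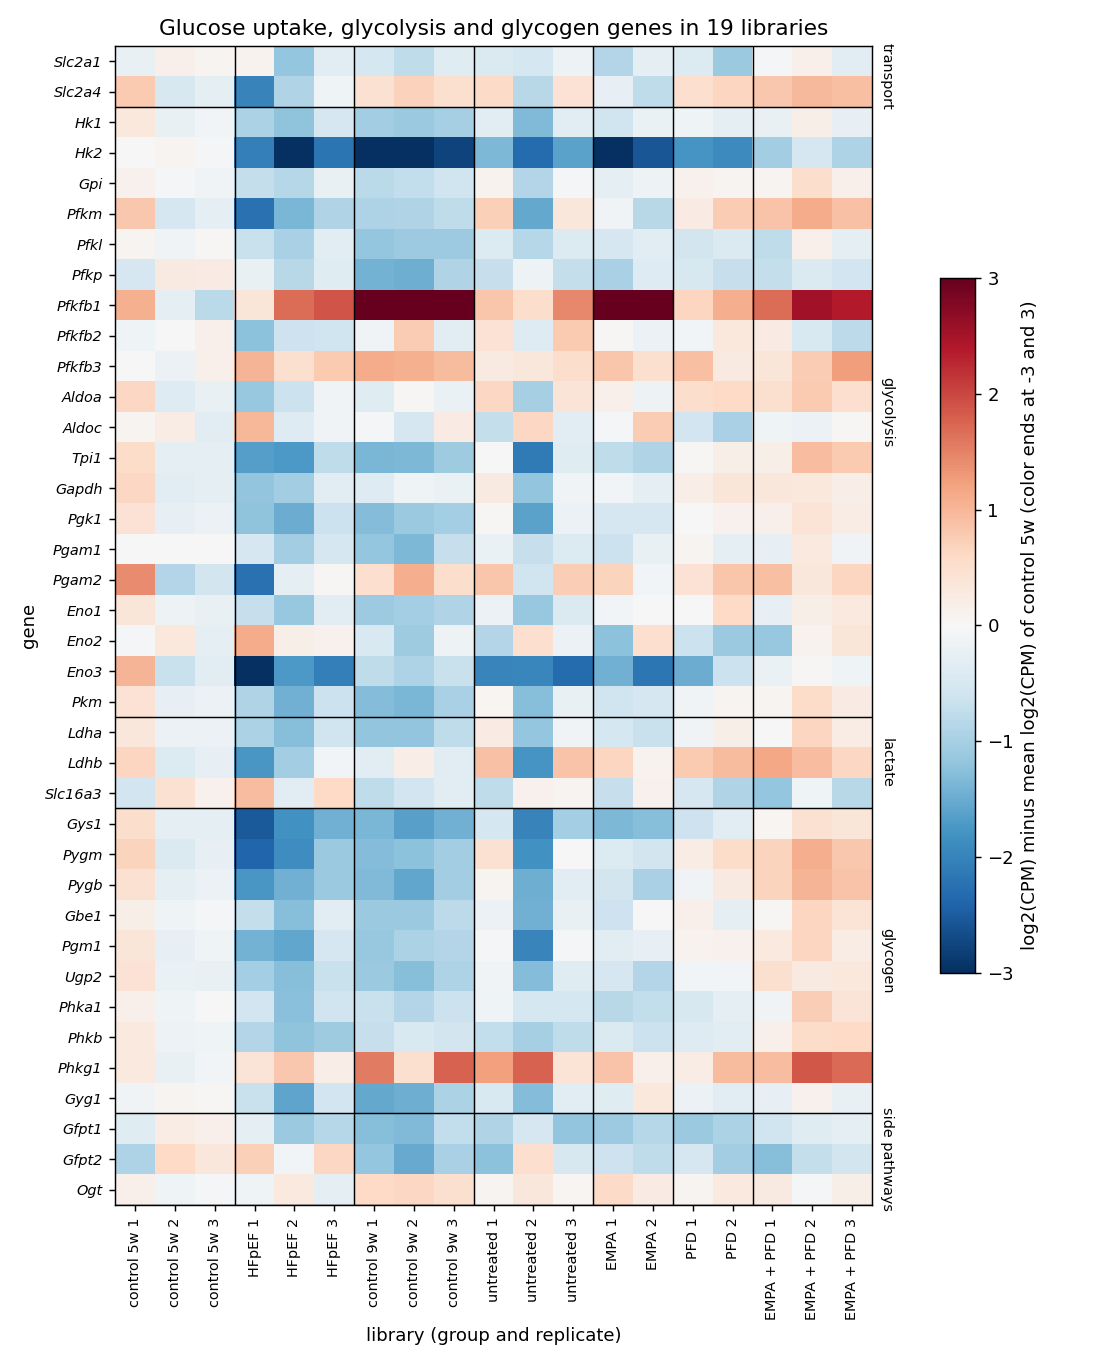
Level of each of the 38 genes (rows) in each of the 19 libraries (columns), as log2(CPM) minus the mean log2(CPM) of control 5w, with the colors ending at -3 and 3. Most rows are blue in HFpEF, control 9w and untreated replicate 2 and pale or red in EMPA + PFD, while Pfkfb1 and Pfkfb3 run the other way in control 9w.

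Neither of the 2 transport genes was called by edgeR in any comparison. Of all genes, 9.83% rose and 10.2% fell in HFpEF, and 17.3% and 17.2% in control 9w. With 2 genes the group cannot be ranked against the others. Slc2a4 encodes GLUT4, the insulin-responsive transporter, and had 347, 145 and 165 CPM in control 5w and 51.0, 108 and 185 CPM in HFpEF. Control 9w had 278, 325 and 283 CPM, untreated 302, 114 and 274 CPM, and EMPA + PFD 353, 401 and 380 CPM. Every EMPA + PFD heart lay above every untreated heart, with the low untreated value again in replicate 2, and the log2 fold change of 0.72 (standard error 0.42) did not pass the test (edgeR adjusted p = 0.248). Slc2a1, which encodes the basal transporter GLUT1, ranged only from 9.63 to 23.8 CPM over all libraries. It had 18.4, 23.8 and 22.5 CPM in control 5w and 23.0, 9.63 and 17.1 CPM in HFpEF, which overlap, and its group means differed by at most 1.66-fold. The log2 ratio of Slc2a1 to Slc2a4 ran from -5.01 in PFD replicate 2 to -1.15 in HFpEF replicate 1, where Slc2a4 was at its lowest.

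The group means of Hk2 differed by up to 9.41-fold, a range exceeded among the members only by Pfkfb1 at 15.9-fold. Hk2, the hexokinase of insulin-sensitive muscle, had 77.4, 83.1 and 74.7 CPM in control 5w, 19.02, 8.80 and 17.2 CPM in HFpEF and 6.88, 6.76 and 11.4 CPM in control 9w. No HFpEF or control 9w heart came near a control 5w heart. Hk2 fell by 2.38 on the log2 scale in HFpEF (standard error 0.30, edgeR adjusted p = 0.000398) and by 3.23 in control 9w (standard error 0.32, edgeR adjusted p = 4.38e-05). Both calls were kept without any 1 library of the groups compared. With HFpEF replicate 2 as the only library of its group, chosen after the data were seen because it has counts of the Y-linked Eif2s3y and Ddx3 like control 5w, 9 members were called, all lower and Hk2 among them, and 10.1% of all genes. The part of Y-linked status in the fall was not tested beyond this.

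At week 9 the order was different. Untreated hearts had 30.9, 15.9 and 25.9 CPM of Hk2, EMPA hearts 8.66 and 13.2, PFD hearts 23.1 and 20.9, and EMPA + PFD hearts 37.96, 55.0 and 41.4 CPM. All untreated hearts were above all control 9w hearts, and all EMPA + PFD hearts were above all untreated hearts. Hk2 rose by 1.53 on the log2 scale in untreated against control 9w (standard error 0.31, edgeR adjusted p = 0.0254), a call that was lost without control 9w replicate 1 or 2 or untreated replicate 1 or 3 (edgeR adjusted p from 0.0779 to 0.127) and in the fit to the 2 groups compared alone (edgeR adjusted p = 0.0791). Against untreated, the difference of EMPA + PFD was 0.89 on the log2 scale (standard error 0.29) and missed the threshold (edgeR adjusted p = 0.0568), and against control 9w it was 2.42 higher (standard error 0.31, edgeR adjusted p = 0.000391). EMPA alone lay below every untreated heart, a difference of -1.14 on the log2 scale (standard error 0.35) that did not pass (edgeR adjusted p = 0.334).

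Control 5w replicates 2 and 3 had the highest fibroblast sums. Without them, an omission chosen after the data were seen that leaves control 5w with 1 library, Hk2 was called lower in HFpEF and in control 9w, when 14.3% and 12.1% of all genes were called. The part of fibroblasts and of cardiomyocytes in the level of Hk2 was not tested.

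Hk1, the constitutive hexokinase, moved less. It had 370, 258 and 281 CPM in control 5w, 156, 130 and 211 CPM in HFpEF and 146, 139 and 151 CPM in control 9w, and it fell by 0.87 (standard error 0.24, edgeR adjusted p = 0.0230) and 1.06 on the log2 scale (standard error 0.25, edgeR adjusted p = 0.00496). The call in HFpEF was lost without control 5w replicate 1 or HFpEF replicate 1 or 2 (edgeR adjusted p from 0.0652 to 0.0880). The log2 ratio of Hk1 to Hk2 was 1.93 ± 0.31 in control 5w (mean ± SD, n = 3), 3.51 ± 0.43 in HFpEF and 4.16 ± 0.38 in control 9w. It was 3.01 ± 0.15 in untreated, 4.41 ± 0.15 in EMPA (n = 2), 3.55 ± 0.02 in PFD (n = 2) and 2.66 ± 0.09 in EMPA + PFD (n = 3). The ratio does not depend on library scaling, and within untreated it was 2.94, 2.92 and 3.18, so replicate 2 did not stand apart in it. Untreated and EMPA + PFD did not overlap, and both lay below every EMPA and PFD heart.

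**Figure D3:**
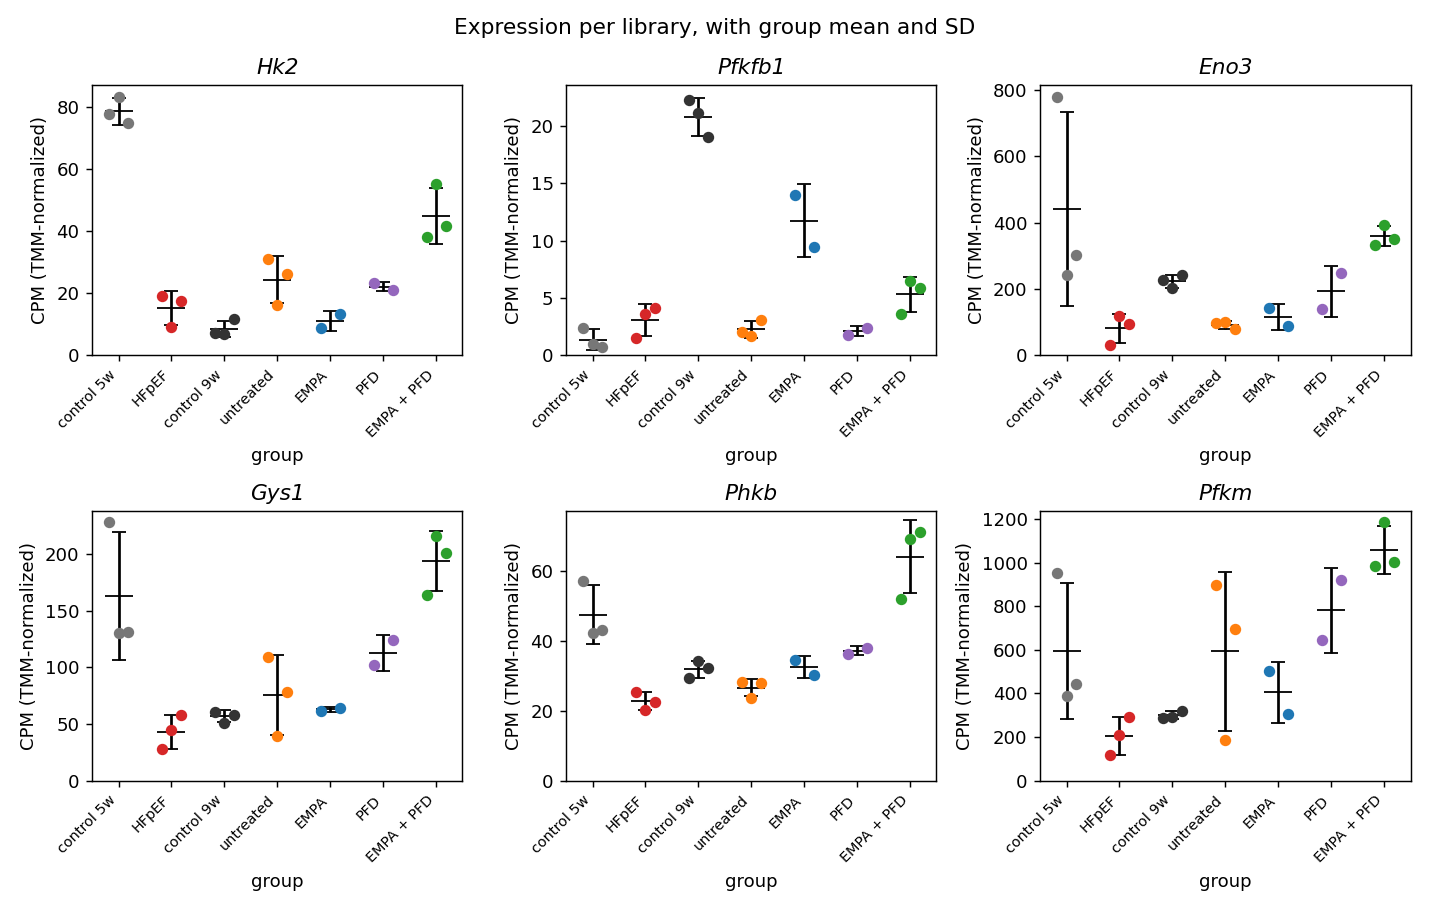
CPM of Hk2, Pfkfb1, Eno3, Gys1, Phkb and Pfkm (vertical axes, TMM-normalized, from 0) by group (horizontal axes); points are libraries, and the black lines are the group mean and SD. Pfkfb1 is high in control 9w (19.04 to 22.3 CPM) and in EMPA, whereas the other 5 genes are highest in control 5w or EMPA + PFD.

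Phosphofructokinase commits the sugar to glycolysis. Its muscle subunit, Pfkm, had 953, 386 and 443 CPM in control 5w and 116, 211 and 291 CPM in HFpEF. It fell by 1.53 on the log2 scale (standard error 0.48, edgeR adjusted p = 0.0376), with no overlap, but the call was lost without control 5w replicate 1 or 3 or HFpEF replicate 1 or 2 (edgeR adjusted p from 0.0504 to 0.167). In untreated it had 898, 188 and 694 CPM against 288, 291 and 320 CPM in control 9w. Untreated replicates 1 and 3 were above, and replicate 2 below, all 3 control 9w hearts, and Pfkm was called higher in untreated only when replicate 2 was left out.

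Pfkl, the liver-type subunit, had 91.6, 81.6 and 88.7 CPM in control 5w, 55.3, 44.5 and 68.9 CPM in HFpEF and 39.3, 41.2 and 41.2 CPM in control 9w, with no overlap between any 2 of them. Pfkp, the platelet-type subunit, had 57.8, 99.3 and 97.9 CPM, 70.6, 46.7 and 63.7 CPM, and 31.0, 30.0 and 44.5 CPM, and its HFpEF and control 5w hearts overlapped. Both genes fell in control 9w, by 1.11 (standard error 0.20, edgeR adjusted p = 0.00127) and 1.27 on the log2 scale (standard error 0.24, edgeR adjusted p = 0.00177). Pfkl also fell in HFpEF, by 0.64 (standard error 0.20, edgeR adjusted p = 0.0364), while Pfkp did not pass there (log2 fold change -0.49, edgeR adjusted p = 0.152). The Pfkl call in HFpEF was kept only without HFpEF replicate 3 and was lost without any other 1 of the 6 libraries (edgeR adjusted p from 0.0557 to 0.132). The log2 ratio of Pfkp to Pfkm was -4.12, -1.34 and -3.78 in the untreated hearts, which sets replicate 2 apart from the others, and -4.30 to -4.17 in EMPA + PFD.

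The bifunctional enzymes of the Pfkfb family make and break fructose 2,6-bisphosphate, the activator of phosphofructokinase, and their genes went in different directions. Pfkfb1, known as the liver form, had 22.3, 21.2 and 19.04 CPM in control 9w and 14.0 and 9.47 CPM in EMPA. It had 3.55, 6.46 and 5.85 CPM in EMPA + PFD, and 0.637 to 4.11 CPM in the 11 libraries of control 5w, HFpEF, untreated and PFD. Control 9w stood above all other hearts, EMPA came next, and no other group reached either. Pfkfb1 rose by 4.01 on the log2 scale from control 5w to control 9w (standard error 0.47, edgeR adjusted p = 0.000107) and fell by 3.23 in untreated against control 9w (standard error 0.45, edgeR adjusted p = 0.00678) and by 1.98 in EMPA + PFD against control 9w (standard error 0.42, edgeR adjusted p = 0.00341). All 3 calls were kept without any 1 library.

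Against untreated, Pfkfb1 had log2 fold changes of 2.40 in EMPA (standard error 0.47, edgeR adjusted p = 0.1) and 1.25 in EMPA + PFD (standard error 0.44, edgeR adjusted p = 0.0709), with all treated hearts above all untreated ones in both. DESeq2 called it in EMPA. Control 5w and HFpEF replicate 2, which had counts of Eif2s3y and Ddx3, had at most 3.58 CPM of Pfkfb1, and control 9w replicate 2, with 0.984 CPM of Sln, had 21.2 CPM. The part of Y-linked status and of atrial tissue in its differences was not tested. Its neighbor Apex2, which overlaps it in RefSeq's annotation of GRCr8 and could share reads with it, had log2 fold changes of -0.12 from control 5w to control 9w, 0.21 in untreated against control 9w and -0.67 in EMPA + PFD against untreated, none called (edgeR adjusted p = 0.688, 0.644 and 0.0579).

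Pfkfb3, the inducible form with high kinase activity, was the member that rose in HFpEF. It had 21.1, 18.7 and 23.3 CPM in control 5w, 42.8, 29.3 and 36.1 CPM in HFpEF and 45.6, 44.0 and 40.8 CPM in control 9w. Both groups lay above control 5w without overlap, and Pfkfb3 rose by 0.78 in HFpEF (standard error 0.21, edgeR adjusted p = 0.0214) and 1.05 in control 9w (standard error 0.21, edgeR adjusted p = 0.00255). The first call was lost without control 5w replicate 1 or 2 or HFpEF replicate 1 (edgeR adjusted p from 0.0518 to 0.0776), and the second was kept without any 1 library but lost without both control 5w replicates 2 and 3 (edgeR adjusted p = 0.0566). Untreated had 25.4, 26.6 and 30.2 CPM, all below control 9w, a difference that edgeR did not call (log2 fold change -0.66, edgeR adjusted p = 0.112). Pfkfb2, the heart form, had no call in any comparison, with 50.8, 54.9 and 61.4 CPM in control 5w and 23.8, 35.9 and 36.4 CPM in HFpEF (log2 fold change -0.80, edgeR adjusted p = 0.0981), and 75.4, 42.4 and 96.2 CPM in untreated.

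Eno3 encodes the enolase of striated muscle and had 779, 241 and 303 CPM in control 5w and 30.6, 116 and 92.9 CPM in HFpEF. It fell by 2.47 on the log2 scale (standard error 0.47, edgeR adjusted p = 0.00412), and the call was kept without any 1 library of the groups. It was lost in the fit to the 2 groups compared alone (edgeR adjusted p = 0.0787) and with HFpEF replicate 2 as the only library of its group (edgeR adjusted p = 0.0517). Untreated had 96.6, 98.7 and 77.4 CPM, below the 225, 202 and 241 CPM of control 9w, and EMPA + PFD had 333, 393 and 350 CPM. Every EMPA + PFD heart was above every control 9w heart, and every control 9w heart above every untreated heart. Eno3 was called neither in untreated against control 9w nor in EMPA + PFD against control 9w.

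Eno3 rose by 1.98 in EMPA + PFD against untreated (standard error 0.46, edgeR adjusted p = 0.0192), the largest rise among the members in this comparison. The call was lost without untreated replicate 2 or 3 or EMPA + PFD replicate 2 or 3 (edgeR adjusted p from 0.0521 to 0.0785), while the log2 fold change stayed between 1.88 and 2.05 over all alternatives. Unlike most members, Eno3 was not lower in untreated replicate 2 than in its group. EMPA had 141 and 86.1 CPM and PFD 138 and 246 CPM. Eno3 overlaps Spag7 in the GRCr8 gene table, and Spag7 had log2 fold changes of -0.52 in HFpEF and 0.49 in EMPA + PFD, neither past the threshold (edgeR adjusted p = 0.0978 and 0.128).

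Eno1, the ubiquitous enolase, had 841, 584 and 561 CPM in control 5w, 305, 322 and 347 CPM in control 9w, and 298 to 576 CPM in untreated. The log2 ratio of Eno1 to Eno3 was 0.55 ± 0.12 in control 9w (n = 3), 2.27 ± 0.59 in untreated (n = 3) and 0.94 ± 0.24 in EMPA + PFD (n = 3). Untreated, at 1.59 to 2.65, did not overlap with either group, and HFpEF, at 1.34 to 3.71, did not overlap with control 5w, at 0.11 to 1.28. Eno2, the neuronal enolase, stayed between 0.666 and 3.37 CPM.

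Of the remaining lower steps, Tpi1, Pgk1, Pgam1 and Pkm fell both in HFpEF, by 0.66 to 1.36 on the log2 scale, and in control 9w, by 1.03 to 1.30. In HFpEF the call of Pgam1 was lost without any 1 of the 6 libraries (edgeR adjusted p from 0.0524 to 0.155). Those of Pgk1 and Pkm there were lost without control 5w replicate 1 or HFpEF replicate 1 or 2 (edgeR adjusted p from 0.0825 to 0.106 and from 0.0676 to 0.121), and that of Pgk1 in control 9w without control 9w replicate 1 (edgeR adjusted p = 0.0534). Tpi1, triose phosphate isomerase, had 193, 108 and 109 CPM in control 5w, 42.0, 40.0 and 77.7 CPM in HFpEF and 51.1, 52.0 and 63.0 CPM in control 9w. It fell by 1.36 in HFpEF (standard error 0.41, edgeR adjusted p = 0.0329) and 1.30 in control 9w (standard error 0.41, edgeR adjusted p = 0.0253). Each of these 2 calls was lost in 3 of 6 omissions of a library, by control 5w replicate 1 and by HFpEF or control 9w replicates 1 and 2 (edgeR adjusted p from 0.101 to 0.122 and from 0.0796 to 0.0944). Pkm, pyruvate kinase, which makes the pyruvate at the end of the pathway, had 1243, 773 and 808 CPM in control 5w, 375, 353 and 467 CPM in control 9w and 968, 1351 and 1098 CPM in EMPA + PFD. The last group was 1.52 above control 9w on the log2 scale (standard error 0.30, edgeR adjusted p = 0.00260).

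Aldoa, Gapdh and Pgam2, the last of them the muscle phosphoglycerate mutase, were not called in any comparison. Pgam2 had 1112, 227 and 284 CPM in control 5w and 592, 879 and 596 CPM in control 9w, with control 5w on both sides. Pgam1, the other isoform of that enzyme, had 499, 503 and 497 CPM and 224, 196 and 312 CPM, without overlap, and fell by 1.03 on the log2 scale (standard error 0.22, edgeR adjusted p = 0.00301). Aldoa, aldolase, ranged from 969 to 3708 CPM, with 3323, 1070 and 2803 CPM in untreated. Gapdh, often used as a reference gene, ranged from 1253 to 4383 CPM, and untreated had 3437, 1256 and 2657 CPM. Gapdh has many processed pseudogenes that can share reads with it. Aldoc, the brain aldolase, had its highest value of 10.8 CPM in HFpEF replicate 1, and the log2 ratio of Aldoc to Aldoa ran from -10.20 in PFD replicate 2 to -6.48 in that heart.

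Lactate dehydrogenase has a muscle subunit, Ldha, and a heart subunit, Ldhb. Ldha had 1223, 857 and 848 CPM in control 5w, 498, 397 and 635 CPM in HFpEF and 426, 425 and 565 CPM in control 9w. It fell by 0.94 in HFpEF (standard error 0.30, edgeR adjusted p = 0.0409) and 1.05 in control 9w (standard error 0.30, edgeR adjusted p = 0.0158), calls kept in 1 and 3 of 6 omissions of a library. The first was kept only without HFpEF replicate 3 (edgeR adjusted p from 0.0561 to 0.135 in the others), and the second was lost without control 5w replicate 1 or control 9w replicate 1 or 2 (edgeR adjusted p from 0.0532 to 0.0649). Ldhb had 4069, 1960 and 2171 CPM in control 5w and 771, 1251 and 2454 CPM in HFpEF, which overlap (log2 fold change -0.87, standard error 0.54, edgeR adjusted p = 0.262). In untreated it had 4759, 759 and 4662 CPM, with replicate 2 again the low heart. The log2 ratio of Ldha to Ldhb was -2.31 ± 0.47 in control 9w (n = 3) and -1.43 ± 0.28 in control 5w (n = 3), without overlap. Slc16a3, the lactate exporter MCT4, stayed between 3.19 and 13.4 CPM with no call.

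Glycogen genes held 7 of the 18 falls in HFpEF, 8 of the 21 falls in control 9w and 5 of the 6 rises with EMPA + PFD against untreated. That is 70%, 80% and 50% of the 10, against 10.2%, 17.2% and 6.60% of all genes. Their median log2 fold changes were -1.03, -1.07 and 0.88. Gys1 encodes muscle glycogen synthase, the enzyme that extends glycogen. It had 228, 130 and 131 CPM in control 5w, 27.5, 44.4 and 57.5 CPM in HFpEF and 60.9, 50.8 and 58.1 CPM in control 9w. It fell by 1.92 in HFpEF (standard error 0.33, edgeR adjusted p = 0.00245) and 1.52 in control 9w (standard error 0.33, edgeR adjusted p = 0.00340). Both calls were kept without any 1 library, and control 5w did not overlap with either group.

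At week 9 Gys1 had 109, 39.1 and 78.0 CPM in untreated, 61.3 and 64.4 CPM in EMPA, 102 and 124 CPM in PFD and 164, 216 and 201 CPM in EMPA + PFD. The EMPA + PFD hearts were the highest of week 9 without overlap. Gys1 rose by 1.36 against untreated (standard error 0.33, edgeR adjusted p = 0.0221), a call lost without untreated replicate 2 or 3 or EMPA + PFD replicate 2 or 3 (edgeR adjusted p from 0.0572 to 0.0903). It was 1.77 above control 9w (standard error 0.33, edgeR adjusted p = 0.00190), a call kept in every omission.

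Glycogen phosphorylase, which releases glucose 1-phosphate from glycogen, moved in the same direction as the synthase. Its muscle form, Pygm, had 1294, 607 and 690 CPM in control 5w and 156, 224 and 376 CPM in HFpEF, and fell by 1.78 on the log2 scale (standard error 0.45, edgeR adjusted p = 0.0160). The call was lost without control 5w replicate 1 or HFpEF replicate 1 or 2 (edgeR adjusted p from 0.0545 to 0.0633). The brain form, Pygb, had 601, 359 and 391 CPM in control 5w, 130, 161 and 204 CPM in HFpEF and 175, 150 and 214 CPM in control 9w. It fell by 1.45 in HFpEF (standard error 0.32, edgeR adjusted p = 0.00885) and 1.32 in control 9w (standard error 0.32, edgeR adjusted p = 0.00651), both kept without any 1 library. With HFpEF replicate 2 as the only library of its group the first was lost (edgeR adjusted p = 0.0727).

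Untreated hearts had 466, 159 and 350 CPM of Pygb and EMPA + PFD hearts 691, 891 and 791 CPM, a rise of 1.28 on the log2 scale (standard error 0.32, edgeR adjusted p = 0.0249). That call was lost without untreated replicate 2 or 3 or EMPA + PFD replicate 2 or 3 (edgeR adjusted p from 0.0580 to 0.0992). Pygm, with 1120, 232 and 808 CPM against 1299, 1724 and 1419 CPM, did not overlap either and was not called (log2 fold change 1.04, edgeR adjusted p = 0.121). The log2 ratio of Pygb to Pygm changed little over the libraries, from -1.31 to -0.26, with its 2 highest values in HFpEF replicates 1 and 2.

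Phosphorylase kinase switches the phosphorylase on, and the genes of its subunits did not move alike. Phkb, the regulatory beta subunit, had 57.2, 42.2 and 43.1 CPM in control 5w, 25.4, 20.3 and 22.5 CPM in HFpEF, 28.2, 23.7 and 27.9 CPM in untreated and 52.0, 69.1 and 71.0 CPM in EMPA + PFD. Untreated replicate 2 was close to the other untreated hearts. Phkb fell by 1.06 in HFpEF (standard error 0.15, edgeR adjusted p = 0.000718) and rose by 1.27 with EMPA + PFD against untreated (standard error 0.15, edgeR adjusted p = 0.00232). It was the single member whose rise with EMPA + PFD was kept in every omission of a library. It was lost only in the fit to the 2 groups compared alone (edgeR adjusted p = 0.0640), in which 0.0435% of all genes were called.

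Phka1, the muscle alpha subunit, was the sixth member that rose with EMPA + PFD and is named for that count after its values were seen. It had 21.6, 16.6 and 16.5 CPM in untreated and 22.2, 40.1 and 31.1 CPM in EMPA + PFD, a log2 fold change of 0.77 (standard error 0.21, edgeR adjusted p = 0.0311) that was lost without untreated replicate 2 or 3 or EMPA + PFD replicate 2 or 3 (edgeR adjusted p from 0.0751 to 0.147). Phka1 is X-linked, and the treatment cannot be told apart from Y-linked status in this comparison. Phkg1, the catalytic subunit of muscle, rose in control 9w by 1.36 (standard error 0.39, edgeR adjusted p = 0.0150), from 7.07, 4.97 and 5.49 CPM to 17.0, 8.12 and 19.7 CPM. The call was lost without control 5w replicate 2 or 3 or control 9w replicate 3 (edgeR adjusted p from 0.0505 to 0.0585). The 3 libraries with high Sln, control 9w replicates 1 and 3 and untreated replicate 2, had 17.0, 19.7 and 19.6 CPM of Phkg1, and EMPA + PFD replicates 2 and 3, with at most 0.478 CPM of Sln, had 21.2 and 18.8 CPM. Without the libraries with high atrial markers, an omission chosen after the data were seen that leaves control 9w with 1 library, Phkg1 was not called (edgeR adjusted p = 0.475). The part of atrial tissue in it was not tested.

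Ugp2 makes UDP-glucose, the sugar donor for glycogen. It had 276, 120 and 231 CPM in untreated and 414, 357 and 369 CPM in EMPA + PFD, and it rose by 0.86 (standard error 0.26, edgeR adjusted p = 0.0458), a call kept only without untreated replicate 1 (edgeR adjusted p from 0.0691 to 0.165 in the other 5 omissions). Gbe1, the branching enzyme, Pgm1, which interconverts the glucose phosphates, and Gyg1, the primer of new glycogen, were higher in EMPA + PFD than in control 9w, by 1.37, 1.38 and 1.20 on the log2 scale (edgeR adjusted p = 0.00472, 0.0138 and 0.00626). The Pgm1 call was lost without control 9w replicate 1 (edgeR adjusted p = 0.0517). Of the 10 glycogen genes, 9 rose in that comparison (90%, against 17.1% of all genes) and Phkg1 was not called.

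Gfpt2, an isoform of the enzyme that diverts fructose 6-phosphate into hexosamines, had 43.2, 124 and 104 CPM in control 5w, 135, 77.3 and 126 CPM in HFpEF and 36.8, 28.7 and 42.0 CPM in control 9w. It fell by 1.33 in control 9w (standard error 0.42, edgeR adjusted p = 0.0233) and lost the call without control 5w replicate 2 or 3 or control 9w replicate 1 or 2 (edgeR adjusted p from 0.0619 to 0.1). Its high libraries, control 5w replicates 2 and 3, the HFpEF hearts and untreated replicate 2 with 116 CPM, were also those with the highest fibroblast sums, and that part was not tested. Without control 5w replicates 2 and 3 the fall was not called. Gfpt1, the other isoform, fell in HFpEF by 0.73 (standard error 0.24, edgeR adjusted p = 0.0408) although the groups overlapped, with 24.2, 36.7 and 34.6 CPM against 25.7, 14.4 and 17.2 CPM. That call was lost without control 5w replicate 2 or 3 or HFpEF replicate 2 or 3 (edgeR adjusted p from 0.104 to 0.143). Ogt, which attaches the hexosamine product to proteins, rose in control 9w by 0.57 (standard error 0.16, edgeR adjusted p = 0.0155), from 429, 355 and 379 CPM to 585, 597 and 541 CPM. It was lost without control 5w replicate 2 or 3 or control 9w replicate 2 (edgeR adjusted p from 0.0503 to 0.0635).

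The disease effect at week 5 and that at week 9 were compared directly, as the difference of the 2 log2 fold changes. It was lower at week 5 for 20 members and higher for 2, Pfkfb1 and Pfkfb3, against 9.76% and 10.2% of all genes. The median difference of the members was -1.18, against 0.02 over all genes. Markers of cell types differed too: the 13 cardiomyocyte markers had a median of -1.63 and 4 were lower, 2 of 8 smooth muscle and pericyte markers were lower, and 3 of 8 endothelial and 3 of 4 red cell markers were higher. Their part was not tested. The largest was that of Pfkfb1 at 4.45 (standard error 0.64, edgeR adjusted p = 0.00104), followed by Hk2 at -3.91 (standard error 0.43, edgeR adjusted p = 0.000343) and Pygm at -2.79 (standard error 0.63, edgeR adjusted p = 0.00963). For 14 of the 22 the call was kept in each of 12 omissions of a library. The controls of the 2 weeks differ themselves, as given above, and the effect is measured against each week's own control.

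The interaction of EMPA and PFD, which asks whether the combination differs from the sum of the single drugs, called no member with edgeR, against 0.00807% of all genes. At an unadjusted p under 0.05 it held 4 members and 9.13% of all genes, and DESeq2 called 1 member, Hk2, and 0.436% of all genes. The Hk2 term was 2.16 on the log2 scale (standard error 0.48, edgeR adjusted p = 0.193). With 2 libraries in each single-drug group the terms of the other members had standard errors of 0.23 to 0.94.

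Other genes of the same pathways, a list of 79 symbols of which 73 were found and 68 tested, were counted in the same way. In HFpEF 7 rose and 19 fell, in control 9w 8 rose and 21 fell, and in EMPA + PFD against untreated 13 rose and 5 fell. In percent of the 68, these are 10.3% and 27.9%, 11.8% and 30.9%, and 19.1% and 7.35%, against 9.83% and 10.2%, 17.3% and 17.2%, and 6.60% and 5.52% of all genes. Their medians were -0.10, -0.14 and 0.24. The genes named below were chosen among the called ones after their values were seen, and no omission of a library is given for them. Of the 17 other glycogen genes tested 10 fell and 2 rose in HFpEF (58.8% and 11.8%, against 10.2% and 9.83% of all genes). Among the falls were Ppp1r3a and Ppp1r3c, which bring the phosphatase to glycogen (log2 fold changes -1.72 and -1.68, edgeR adjusted p = 0.00774 and 0.00826).

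Slc16a1, the lactate and pyruvate carrier MCT1, had 579, 505 and 523 CPM in control 5w, 148, 69.1 and 245 CPM in HFpEF and 165, 155 and 178 CPM in control 9w. In contrast to the MCT4 gene it was called in both, falling by 1.80 (standard error 0.45, edgeR adjusted p = 0.0148) and 1.69 on the log2 scale (standard error 0.45, edgeR adjusted p = 0.0104). It rose by 1.69 with EMPA + PFD against untreated (standard error 0.45, edgeR adjusted p = 0.0295), from 281, 71.1 and 209 CPM to 413, 793 and 609 CPM.

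Among the genes of insulin and glucose signaling, Txnip, a glucose-induced inhibitor of glucose uptake, had 508, 516 and 517 CPM in control 5w and 1329 to 2489 CPM in HFpEF. It rose by 1.91 in HFpEF (standard error 0.26, edgeR adjusted p = 0.000610) and 2.04 in control 9w (standard error 0.26, edgeR adjusted p = 0.000165), and all 16 hearts of the other groups were above all control 5w hearts. Prkaa2, the muscle catalytic subunit of the energy sensor AMPK, had 66.8, 47.9 and 50.1 CPM in control 5w and 6.32, 6.05 and 9.02 CPM in HFpEF. It fell by 2.95 (standard error 0.43, edgeR adjusted p = 0.000944) and rose by 2.22 with EMPA + PFD against untreated (standard error 0.41, edgeR adjusted p = 0.00915), from 27.6, 5.44 and 14.1 CPM to 48.6, 88.5 and 81.8 CPM. Pygl, the liver phosphorylase, fell by 2.36 with EMPA + PFD (standard error 0.45, edgeR adjusted p = 0.00957) from 14.5, 18.4 and 12.5 CPM in untreated to 4.38, 1.20 and 3.24 CPM. Pygb, the brain form, rose there, a call lost in 4 of 6 omissions of a library, and Pygm, the muscle form, was not called.

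Markers of the cell types moved in the same comparisons. Of the 13 cardiomyocyte markers, 4 fell in HFpEF, 2 in control 9w, and 1 rose with EMPA + PFD against untreated and 4 against control 9w, where 10.2%, 17.2%, 6.60% and 17.1% of all genes moved that way. Their median log2 fold changes were -1.24, -0.60, 0.80 and 1.16, beside medians of -0.83, -0.99, 0.53 and 0.97 for the 38 genes. The endothelial markers (8 of 8 found, Vwf the most abundant, none at 0) summed to 1512 to 1848 CPM in control 5w, 1736 to 3690 in HFpEF, 3443 to 3994 in control 9w, 3039 to 3535 in untreated and 1830 to 2168 in EMPA + PFD, so that 4 of the 8 rose in HFpEF, 7 rose in control 9w and 7 fell in EMPA + PFD against control 9w, against 9.83%, 17.3% and 16.6% of all genes. Myeloid markers (10 of 10 found, Lyz2 the most abundant, none at 0) summed to 656, 2149 and 1748 CPM in control 5w, 2973, 664 and 1728 CPM in HFpEF and 303 to 892 CPM at week 9. In control 9w 5 of the 10 myeloid and 6 of the 8 fibroblast markers fell, against 17.2% of all genes, with medians of -1.37 and -2.77. Of the 7 atrial markers 2 rose in control 9w and 2 fell in EMPA + PFD against untreated, against 17.3% and 5.52% of all genes, with medians of 2.05 and -5.61. In EMPA + PFD against control 9w 5 of the 7 fell, against 16.6% of all genes, with a median of -7.08. The part of these cells in the results was not tested.

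Smooth muscle and pericyte markers (8 of 8 found, Abcc9 the most abundant) summed to 1278 to 3449 CPM, skeletal muscle markers (9 of 9, Tnnt3) to 24.4 to 104 CPM, lymphocyte markers (6 of 7, Cd2) to 8.73 to 39.1 CPM and adipocyte markers (5 of 5, Cfd) to 6.39 to 59.1 CPM. Of the 6 lymphocyte markers 3 rose in HFpEF, against 9.83% of all genes. Schwann cell and nerve markers (6 of 6 found) summed to 378, 44.9 and 70.6 CPM in HFpEF, against 45.3, 30.1 and 30.2 CPM in control 5w. EMPA replicate 2 had 200 CPM. Of the 5 tested 2 rose in HFpEF, against 9.83% of all genes, with a median of 2.21 on the log2 scale, and their part was not tested. Red cell markers (6 of 7, Hbb) ranged from 141 to 3884 CPM, and of the 4 tested 2 fell in untreated against control 9w, 4 in untreated against HFpEF and 3 in EMPA + PFD against control 9w, with medians of -2.62, -3.52 and -2.48 on the log2 scale. The shares of all genes were 1.19% falling, 0.226% called in either direction and 16.6% falling. In HFpEF and in EMPA + PFD against untreated 1 of the 4 rose, against 9.83% and 6.60% of all genes. The part of blood in the results was not tested.

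The promoters of the members were searched for short motifs to show what they share in sequence. RefSeq promoter windows of the GRCr8 assembly were matched by symbol for 35 of the 38 genes, in 41 windows, and Slc2a4, Pgk1 and Gfpt2 had none. In the 250 bases before the start, on both strands, ACGTG, the core bound by hypoxia-inducible factors, was present in 48.6% of the 35 genes and in 18.1% of all 27457 genes. GCGTG, the other core of that site, was present in 42.9% and 28.4%, CACGTG, the E-box that contains ACGTG, in 8.57% and 6.18%, and AAGGTCA, a half-site of estrogen-related receptors, in 2.86% and 4.17%. Motifs rich in C and G are frequent in promoters of widely expressed genes, and a match is a description of these letters only.

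The 3 members with the E-box are shown because they did not move together: Ldha and Gyg1 fell in HFpEF and control 9w, and Pfkfb3 rose in both. The Gyg1 call in HFpEF was kept only without HFpEF replicate 3 (edgeR adjusted p from 0.0567 to 0.140 in the other 5 omissions). Capitals mark any of the 4 motifs on either strand, in the 250 bases before the start, read 5′ to 3′ on the strand of the gene, on GRCr8. Pfkfb3 is at chr17:71944683-71944932 on the plus strand, Ldha at chr1:106507842-106508091 on the plus strand and Gyg1 at chr2:104582778-104583027 on the minus strand.
Pfkfb3: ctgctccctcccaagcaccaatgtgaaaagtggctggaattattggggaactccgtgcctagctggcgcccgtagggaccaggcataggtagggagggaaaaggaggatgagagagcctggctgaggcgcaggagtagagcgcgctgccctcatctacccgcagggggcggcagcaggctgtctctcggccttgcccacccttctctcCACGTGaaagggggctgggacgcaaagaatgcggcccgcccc
Ldha: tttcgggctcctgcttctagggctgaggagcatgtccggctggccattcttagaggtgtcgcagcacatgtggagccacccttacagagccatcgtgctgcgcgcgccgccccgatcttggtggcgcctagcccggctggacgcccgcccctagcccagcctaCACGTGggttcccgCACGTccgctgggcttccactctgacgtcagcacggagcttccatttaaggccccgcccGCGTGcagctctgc
Gyg1: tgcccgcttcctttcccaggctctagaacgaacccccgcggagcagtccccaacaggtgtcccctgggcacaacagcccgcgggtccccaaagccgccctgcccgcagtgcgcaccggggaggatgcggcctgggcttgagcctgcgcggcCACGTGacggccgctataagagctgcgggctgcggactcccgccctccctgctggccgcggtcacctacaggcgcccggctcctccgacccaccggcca
Ldha held 3 matches of ACGTG, 2 of them within its E-box (1 on each strand), and 1 of GCGTG, and Pfkfb3 and Gyg1 held 2 of ACGTG each, both within the E-box. Hk2, Eno3 and Pfkfb1, the members with some of the largest changes, held none of the 4 motifs in this window.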

How the data were processed

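The deposited libraries are those of 19 hearts in 7 groups. According to the study, a sample of the EMPA group and a sample of the PFD group were left out because their files were corrupted. The authors used Trim Galore for trimming, HISAT2 for alignment to rn6 and HTSeq for counting per gene (versions, overlap mode and strand setting not stated). The deposited values are raw counts for 17455 gene symbols. Genes passing filterByExpr (12388) were scaled by TMM and tested with the quasi-likelihood F test of edgeR 4.0.16 (R 4.3.3, limma 3.58.1) in 1 fit over all groups, with Benjamini-Hochberg adjustment over all genes tested and a threshold of 0.05. The biological coefficient of variation was 0.257. The interaction is (EMPA + PFD minus untreated) minus the sum of the 2 single-drug effects. The scripts were tested on simulated data.

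Members and lists were chosen with earlier results of these data known. Genes named with values are, in HFpEF, control 9w, untreated and EMPA + PFD against their references, among called members the 5 that rose most and the 5 that fell most, and isoform sets whose members differ in direction. Other pathway genes were to be named where called, and those named were chosen among the called ones after values were seen. Alternatives were RLE and upper quartile scaling, no filter beyond 1 count, DESeq2 1.42.0, a 2-fold minimum, replicate number as a block, only the groups compared, and omission of each library. Some omissions were added after the data were seen. The table of the whole series repeats the same counts and was not used.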

Additional observations from a re-analysis of the deposited data

Results flagged for a closer look

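The results below were picked out because the effect of the disease model differed between week 5 and week 9, by the test of that difference. The values are the log2 fold change at week 5 (HFpEF against control 5w) minus that at week 9 (untreated against control 9w). Of the genes of glycolysis and lactate, it was lower at week 5 for Hk1 (-1.32), Hk2 (-3.91), Gpi (-1.07), Pfkm (-2.51), Pfkl (-1.20), Pfkp (-1.23), Tpi1 (-2.02), Pgk1 (-1.83), Pgam1 (-1.27), Eno1 (-1.20), Pkm (-1.82) and Ldha (-1.74). Of the glycogen genes, it was lower at week 5 for Gys1 (-2.33), Pygm (-2.79), Pygb (-2.30), Pgm1 (-1.62), Ugp2 (-1.59), Phka1 (-1.11), Phkb (-0.80) and Gyg1 (-1.53). It was higher at week 5 for Pfkfb1 (4.45) and Pfkfb3 (1.44). Over 12 omissions of a library the call of Pgm1 was lost in 10, those of Gpi, Tpi1 and Eno1 in 7 each and that of Pfkp in 4. The calls of Phka1, Hk1 and Pfkm were lost in 2, 1 and 1. The 2 weeks have different controls, and the hearts with the Y-linked Eif2s3y and Ddx3 at 0 counts were 2 of 3 in HFpEF and 3 of 3 in untreated.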

How the results depend on the processing

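No called difference of a member changed direction in any alternative: 1217 of the values kept their side of the threshold and 242 lost it. Differences of members that were not called in the main fit were not followed in this way. Of 151 counts of called members, 125 stayed within 1.5 times of the main count or, where that was 0, stayed at 0. The main count was 0 in EMPA, PFD, untreated against HFpEF and the interaction, where no ratio can be formed. Scaling moved the median of all genes by at most 0.091 on the log2 scale.

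For HFpEF against control 5w, 19 members were called, 9 with a 2-fold minimum and 4 in a fit of only the groups compared. Of all genes, 20%, 8.69% and 6.01% were called in these. Over omissions of a library the count was 6 to 22, when 12% to 16.9% of all genes were called. With HFpEF replicate 2 alone, chosen after seeing the data, it was 9. For control 9w against control 5w the count was 25, 17 to 23 over omissions, and 16 without control 5w replicates 2 and 3, also chosen after seeing the data. For untreated against control 9w the count was 2, and 1 to 12 over omissions, when 0.0647% to 8.22% of all genes were called. For EMPA + PFD against untreated it was 6, 10 with DESeq2 and 1 with only the groups compared, beside 12.1%, 21.4% and 0.0435% of all genes. Over omissions it was 1 to 10, beside 0.888% to 18.3%. Leaving out the libraries with high atrial markers, chosen after seeing the data, leaves control 9w with 1 library, and no count is given for it. For untreated against HFpEF the count was 0, 4 with DESeq2 and 0 to 17 over omissions, beside 0.226%, 7.76% and 0.0325% to 14.5% of all genes. DESeq2 called 1 in EMPA against untreated and 1 in the interaction, where omissions left 0. Ranges over omissions were 20 to 23 for EMPA + PFD against control 9w and 15 to 27 for the difference between weeks. Of all genes, 20% to 30.4% and 10.7% to 29.9% were called in these. Omissions leave fewer libraries in the test, and the cause of each move was not tested.

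With replicate number as a block, 15, 24, 2 and 6 members were called in HFpEF, control 9w, untreated and EMPA + PFD. Of all genes, 17%, 31.2%, 0.799% and 8.84% were called there. EMPA, PFD, untreated against HFpEF and the interaction had a count of 0, beside 0.00807%, 0%, 0.0727% and 0.00807% of all genes. EMPA + PFD against control 9w and the difference between weeks each held 21, beside 31% and 16.6% of all genes. The correlations of libraries with the same number ran from -0.532 to 0.351, and the replicates share only a number.

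Groups hold 2 or 3 libraries, and a library left alone in its group is assumed to vary like the other groups. Depth of 7430539 to 13017754 counts limits members near 1 CPM, such as Eno2 and Pfkfb1. Gene lengths were not used, so levels are not compared between genes. Symbols are those of the files, and reads shared with overlapping genes (17 members, 6 with the neighbor in the files) or pseudogenes cannot be separated. RNA levels give neither enzyme activity nor glucose flux.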

Other observations

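Genes of the circadian clock, chosen after their values were seen, separated some groups. Arntl had 14.1, 17.5 and 16.5 CPM in control 9w, 70.3, 76.0 and 71.0 CPM in untreated and 73.6, 12.2 and 5.01 CPM in EMPA + PFD. Dbp had 207, 203 and 183 CPM in control 9w, 55.6, 41.1 and 46.8 CPM in untreated and 41.9, 94.2 and 152 CPM in EMPA + PFD. Per2 had 239.7, 286 and 210.1 CPM in control 9w, 20.2, 45.8 and 29.4 CPM in untreated and 22.5, 141 and 185 CPM in EMPA + PFD. Nr1d1 had 154, 151 and 142 CPM in control 9w, 121, 79.4 and 103 CPM in untreated and 106, 82.5 and 82.6 CPM in EMPA + PFD. Arntl had 32.6, 59.2 and 62.4 CPM in control 5w, 49.5, 84.0 and 39.2 in HFpEF, 60.1 and 65.6 in EMPA and 61.7 and 76.7 in PFD. Each of these genes differed without overlap between untreated and control 9w. In Arntl, Dbp and Per2, EMPA + PFD replicate 1 lay apart from replicates 2 and 3. The hour at which hearts were taken is not given, and the part of these differences in the results was not tested.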
